A study of Rattus norvegicus with 6 samples.

Results

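Of the mature sequences listed in small RNA libraries of rat nucleus pulposus, 5 of 442 belonged to the miR-34 and miR-146 families, namely miR-34a-5p, miR-34b-3p, miR-34c-5p, miR-146a-5p and miR-146b-5p. They were taken by name, as every row called miR-34a, miR-34b, miR-34c, miR-146a, miR-146b or miR-155, and no row was named miR-155. These names, and the lists used below, were chosen with earlier results of these data known. The nucleus pulposus is the gel-like centre of the intervertebral disc. The 3 IDD libraries came from nucleus pulposus after 4 weeks of compression, a rat model of intervertebral disc degeneration, and the 3 Sham libraries from rats that carried K-wires (metal surgical pins) for 4 weeks. Strain, age, sex and disc level of the rats are not given in the labels, nor whether each library was 1 animal. The p-values therefore cover variation among these libraries and may hold technical variation only. The comparison addresses which miRNAs respond to mechanical load in the degenerating disc.

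A miRNA is cut from a hairpin precursor and represses mRNAs that pair with its seed, bases 2 to 8 from the 5′ end. The miR-34 family is a direct transcriptional target of p53, and miR-34a is known to hold back cell cycle and survival genes and to accumulate in senescent cells. miR-34b and miR-34c come from 1 shared primary transcript and are known for high levels in multiciliated cells and testis. miR-146a is induced by NF-kB, and miR-146a and miR-146b repress the adaptors IRAK1 and TRAF6, which dampens signalling from cytokine and Toll-like receptors. miR-155 is induced in activated macrophages and lymphocytes. Small RNA libraries measure none of the cell states behind these names, so senescence and inflammation stand here only as the processes the miRNAs are known from.

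The 5 listed sequences, with the seed in capitals, show which members can pair with the same targets, and each was identical to the RefSeq entry on the rat build GRCr8.
miR-34a-5p: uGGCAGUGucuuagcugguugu
miR-34c-5p: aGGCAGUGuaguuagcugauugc
miR-34b-3p: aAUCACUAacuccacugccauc
miR-146a-5p: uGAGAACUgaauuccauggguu
miR-146b-5p: uGAGAACUgaauuccauaggcugu
miR-34a-5p and miR-34c-5p share 1 seed, miR-146a-5p and miR-146b-5p share another, and miR-34b-3p has a seed of its own. From the 5′ end, miR-146b-5p and miR-146a-5p are identical over 17 bases and then differ by the substitutions A18G and C21U (the base of miR-146b-5p first), and miR-146b-5p is 24 nt long against 22 nt. No other listed sequence had either shared seed, and miR-449a-5p and miR-449c-5p, which carry the miR-34 seed in RefSeq, were not listed. None of the 5 differed from another listed sequence by a single base or lay inside one.

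On GRCr8, which is not the build Rnor_6.0 named in the submitters' processing notes, miR-34c-5p lies at chr8:60306133-60306155 and miR-34b-3p at chr8:60306621-60306642, both on the minus strand and both inside the RefSeq span of the protein-coding gene Hoatz. The 2 hairpins are 441 bases apart. miR-34a-5p lies at chr5:165815971-165815992 on the plus strand, and miR-146a-5p at chr10:28350053-28350074 on the minus strand, each inside a RefSeq long non-coding RNA. miR-146b-5p lies at chr1:255144874-255144897 on the plus strand, inside the span of the protein-coding gene C1h10orf95. Whether these positions are exonic or intronic was not looked up, since the gene table used here holds spans only.

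Library totals were 189802 to 246422 tags in IDD and 169783 to 253807 tags in Sham, after rows that repeat a sequence were merged. Provisionally named tags held 16.9% to 22.2% of tags in IDD and 43.8% to 50.5% in Sham, which affects every share of all tags given here. Levels are therefore given as CPM, tags per 1000000 of a library total scaled by TMM, a method that aligns the bulk of the sequences between libraries. miR-140 and miR-455, known from cartilage, held 12.3% to 12.9% of all tags in IDD and 7.62% to 10.2% in Sham. With provisionally named tags left out of the total, they held 15.3% to 15.9% in IDD and 15.4% to 18.1% in Sham, and the groups overlapped. Muscle miRNAs, nearly all of them miR-1b, held 39.1% to 43.3% of all tags in IDD and 20.2% to 22.8% in Sham. With provisionally named tags left out, this was 48.0% to 52.2% and 40.4% to 40.9%. The other muscle miRNAs did not all move alike. By mean CPM in IDD and Sham, miR-1-3p stood at 1359 and 811, and miR-206-3p at 169 and 51.5. miR-133a-3p stood at 75.3 and 50.8, miR-499-5p at 94.2 and 101, and miR-133a-5p at 13.1 and 19.4. No miRNA is known to define the nucleus pulposus, so these shares do not test the tissue label, and the muscle miRNAs' part in the values below was not tested. In bulk tissue, fewer cells of a type and less of a miRNA per cell cannot be told apart.

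Only miR-34c-5p and miR-146b-5p were abundant enough to be tested, and neither passed. Of 131 tested sequences 78 passed, or 59.5%, with 29.0% higher and 30.5% lower in IDD, and among established names alone 57.4% passed (edgeR's quasi-likelihood test of IDD against Sham, Benjamini-Hochberg adjusted p below 0.05). Of the members, 0 of 2 passed, 0 of 2 had an unadjusted p below 0.05, and DESeq2 and limma-voom also called 0 of 2. The remaining members, miR-34a-5p, miR-34b-3p and miR-146a-5p, had at most 5 tags in any library. Intervals on so few tags hold for counting error alone, because tags copied by PCR do not stand for separate molecules.

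**Figure D1:**
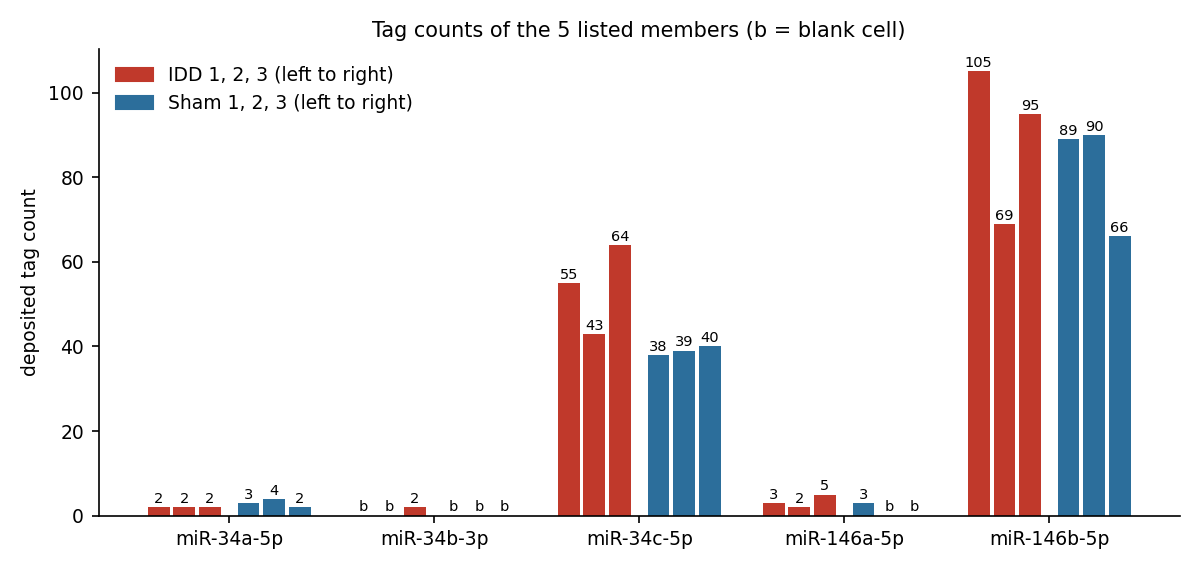
Deposited tag counts (y axis) of the 5 listed members, with 1 bar per library (IDD 1, 2 and 3, then Sham 1, 2 and 3) and b for a blank cell. miR-34c-5p lies between 38 and 64 tags and miR-146b-5p between 66 and 105, whereas the other members reach at most 5.

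miR-34c-5p was the main miR-34 sequence of these discs. Its deposited counts were 55, 43 and 64 tags in IDD 1, 2 and 3, against 38, 39 and 40 in Sham 1, 2 and 3. Scaled for depth, these were 213, 220 and 267 CPM in IDD and 179, 164 and 226 CPM in Sham. The highest value was that of IDD 3, but Sham 3 lay above IDD 1 and IDD 2, so the groups overlapped. Over all tested sequences, 66.4% had groups that did not overlap in CPM.

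Its mean was 233 ± 29.3 CPM in IDD and 189 ± 32.2 CPM in Sham (SD, n = 3 each), a fold of 1.25 (log2 0.32, SE 0.17). The edgeR adjusted p was 0.122, and the 95% interval of the fold ran from 0.970 to 1.60. A rise of up to 1.60-fold is therefore inside the interval, and a 2-fold rise is outside it. By mean CPM it ranked 61 of 204 established miRNAs in IDD and 64 in Sham. The absolute log2 fold change was 0.32, against a median of 0.54 over all tested sequences.

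The size and the call of miR-34c-5p moved with the scaling. Without any scaling beyond the library total its log2 fold change was 0.51 (edgeR adjusted p = 0.0401), and it was 0.52 on the authors' normalized values (limma adjusted p = 0.00439). Those 2 settings also moved the median log2 fold change of all tested sequences, from 0.03 with TMM to 0.22 and 0.28. Relative to that median, miR-34c-5p stood at 0.29 with TMM, 0.29 without it and 0.23 on the authors' values. Over all alternatives this offset ran from 0.20 without Sham replicate 1 to 0.68 with no filter. What moved the call was not tested. Scaled on the established miRNAs alone, its log2 fold change was 0.19 (adjusted p = 0.378), and its sign was positive under all 18 alternatives of the fit.

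**Figure D2:**
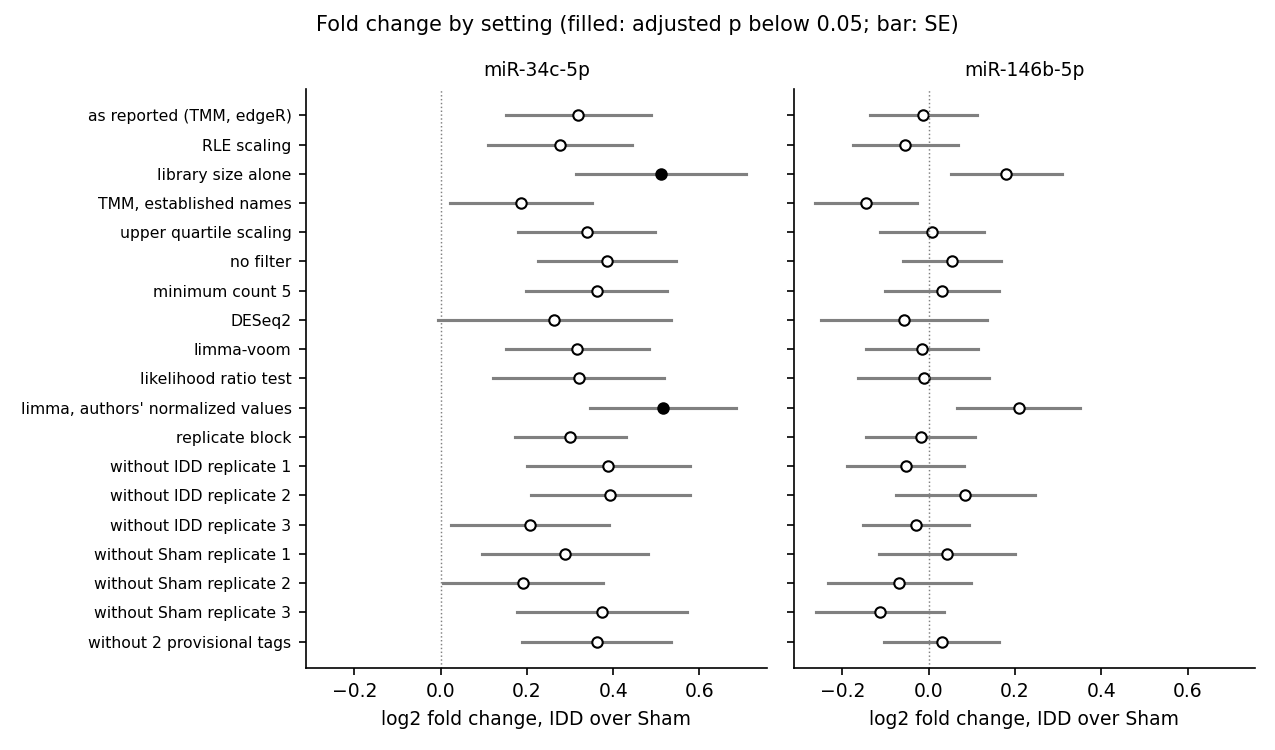
Log2 fold change of IDD over Sham (x axis) for miR-34c-5p and miR-146b-5p under the reported test and each alternative (y axis), with bars for the SE and filled points for an adjusted p below 0.05. miR-34c-5p lies between 0.19 and 0.52 and is filled in 2 settings, and miR-146b-5p lies between −0.15 and 0.21 and is filled in none.

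miR-34a-5p, the family member studied most in senescence, was close to the detection limit. It had 2, 2 and 2 tags in IDD and 3, 4 and 2 tags in Sham, where 2 is the lowest count that the deposited table lists. In CPM these were 7.74, 10.2 and 8.34 in IDD and 14.1, 16.8 and 11.3 in Sham. The CPM values of the groups did not overlap, but IDD 1 to 3 and Sham 3 held the same 2 tags and differ only through depth. A lack of overlap in CPM was also seen for 66.4% of the 131 tested sequences.

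Summed over libraries miR-34a-5p had 6 tags in IDD against 9 in Sham, a depth-scaled ratio of 0.603 with an exact 95% counting interval of 0.177 to 1.90 (two-sided exact permutation p = 0.1, the smallest p that 3 libraries against 3 allow). Among the tags with the shared miR-34 seed, miR-34a-5p made up 3.57% in IDD (6 of 168, exact binomial 95% interval 1.32% to 7.61%) and 7.14% in Sham (9 of 126, interval 3.32% to 13.1%). miR-34c-5p thus held 94.9% of the 294 tags with that seed over the 6 libraries. By library the share was 3.51%, 4.44% and 3.03% in IDD and 7.32%, 9.30% and 4.76% in Sham, without overlap (mean 3.66% ± 0.719 in IDD and 7.13% ± 2.28 in Sham, SD, n = 3 each, two-sided exact permutation p = 0.1, the smallest possible). The pooled counting intervals overlap, and each library's share rests on 2 to 4 tags of miR-34a-5p.

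The shared miR-34b and miR-34c locus gave unequal arms. miR-34b-3p was listed with 2 tags in IDD 3 and was blank in the other 5 libraries, which puts both groups at or under the detection limit and allows no fold. miR-34b-5p and miR-34c-3p were not listed in any library. The 2 RefSeq hairpins are printed with the listed arm in capitals, which is the 3p arm for Mir34b and the 5p arm for Mir34c.
Mir34b: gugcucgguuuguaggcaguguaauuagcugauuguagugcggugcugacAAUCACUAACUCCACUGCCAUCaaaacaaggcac
Mir34c: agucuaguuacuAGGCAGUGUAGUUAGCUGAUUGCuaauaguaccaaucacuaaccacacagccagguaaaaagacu
The unlisted 5p arm of Mir34b, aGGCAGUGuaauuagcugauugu in RefSeq, has the seed of miR-34c-5p and differs from it by the substitutions G11A and C23U (the base of miR-34c-5p first, counted from the 5′ end).

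miR-146b-5p was the most abundant member, and in TMM-scaled CPM it did not pass the test. Its deposited counts were 105, 69 and 95 tags in IDD and 89, 90 and 66 tags in Sham. These were 406, 353 and 396 CPM in IDD and 418, 378 and 372 CPM in Sham. IDD 1 and IDD 3 lay above Sham 2 and Sham 3, so the groups overlapped, while IDD 2 was the lowest of all libraries and Sham 1 the highest.

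The mean of miR-146b-5p was 385 ± 28.4 CPM in IDD and 390 ± 25.0 CPM in Sham (SD, n = 3 each), a fold of 0.991 (log2 −0.01, SE 0.12, edgeR adjusted p = 0.975). The 95% interval of the fold ran from 0.823 to 1.19. Only 3 of the 130 other tested sequences had a smaller absolute log2 fold change. It ranked 56 of 204 established miRNAs in IDD and 55 in Sham.

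**Figure D3:**
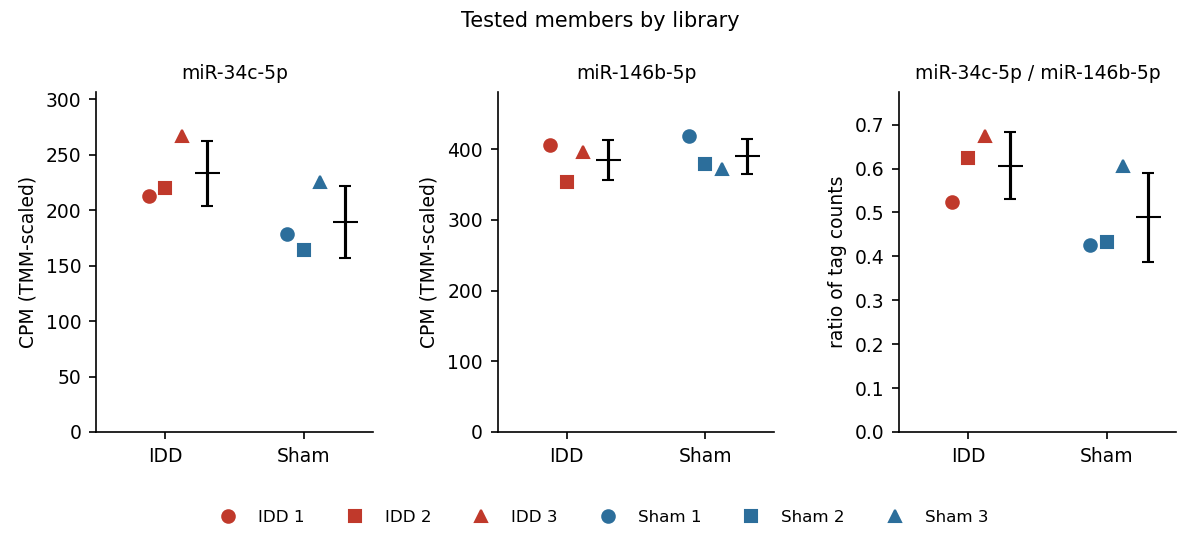
TMM-scaled CPM of miR-34c-5p (left) and miR-146b-5p (middle), and the ratio of their tag counts (right), with 1 point per library and the mean and SD beside each group. Sham 3 lies above IDD 1 and IDD 2 for miR-34c-5p, and the 6 values of miR-146b-5p lie between 353 and 418 CPM.

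miR-146a-5p, the form most often linked to NF-kB feedback, was rare. It had 3, 2 and 5 tags in IDD and 3 tags in Sham 1, and was blank in Sham 2 and Sham 3. All 3 IDD libraries therefore listed it, against 1 of 3 Sham libraries. In CPM it stood at 11.6, 10.2 and 20.8 in IDD and at 14.1 in Sham 1, so the groups overlapped.

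Summed counts of miR-146a-5p were 10 tags in IDD and 3 in Sham, a depth-scaled ratio of 3.02 with an exact 95% counting interval of 0.777 to 17.1 (two-sided exact permutation p = 0.3). The log2 ratio was 1.59 with blanks as 0 and 0.86 with blanks as 1, and 0.91 without Sham 2, so its size depends on the blank Sham libraries. Of the tags with the shared miR-146 seed, miR-146a-5p made up 3.58% in IDD (10 of 279, exact binomial 95% interval 1.73% to 6.49%) and 1.21% in Sham (3 of 248, interval 0.250% to 3.49%). miR-146b-5p held 97.5% of the 527 tags with that seed. As the 2 forms differ after base 17, tags cut short at the 3′ end could be assigned to either, and the labels do not say how such tags were counted.

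The names that were absent set a bound. RefSeq annotates 12 arms for the 6 names, of which 5 were listed and 7 were not, namely both arms of miR-155, miR-34a-3p, miR-34b-5p, miR-34c-3p, miR-146a-3p and miR-146b-3p. The unlisted miR-155-5p reads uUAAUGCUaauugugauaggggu in RefSeq and shares its seed with no listed sequence. As the lowest listed count was 2, a blank can stand for 0 or 1 tag. A library with at most 1 tag allows an expected count of up to 4.74 tags (one-sided exact Poisson limit at 95%), which is 18.3 to 26.7 CPM over the 6 libraries. That limit is 4.52% to 7.19% of the level of miR-146b-5p in the same library. Taken alone, each library thus leaves room for miR-155 up to that limit, in IDD as in Sham. A joint limit over all libraries of a group would be lower and was not computed. Only a rise that stayed below such a joint limit is not excluded. The limit is not a detection threshold, as 2 tags correspond to 7.74 to 11.3 CPM and miR-34a-5p was listed at such levels.

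How the members stood between the groups depended on what they were counted against. Together the 5 members held 670, 611 and 782 per 1000000 of all tags in IDD and 524, 528 and 636 in Sham (mean 688 ± 87.0 in IDD and 563 ± 63.5 in Sham, SD, n = 3 each, two-sided exact permutation p = 0.2). Per 1000000 tags of established miRNAs alone they held 806, 785 and 962 in IDD and 1059, 981 and 1132 in Sham (mean 851 ± 96.4 in IDD and 1057 ± 75.6 in Sham, two-sided exact permutation p = 0.1). The direction turned between these denominators, and IDD lay wholly below Sham in the second. Against established tags, the groups did not overlap for 68.5% of the 108 tested established miRNAs, and for 63.0% once miR-1b was left out of the denominator, so a lack of overlap was the common case.

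Both tested members took part in that turn. From all tags to established tags, the log2 ratio of the group means went from 0.17 to −0.44 for miR-146b-5p. For miR-34c-5p it went from 0.47 to −0.12. Per 1000000 established miRNA tags miR-146b-5p held 513, 467 and 544 in IDD and 709, 664 and 692 in Sham. These did not overlap (two-sided exact permutation p = 0.1). Per 1000000 of all tags it held 426, 364 and 442 in IDD and 351, 358 and 389 in Sham, and these overlapped (two-sided exact permutation p = 0.2). miR-1b alone makes up a large part of the established tags and moves with the groups, so its tags were also left out of the denominator. miR-146b-5p then stood at 1019 ± 62.8 in IDD and 1155 ± 42.9 in Sham per 1000000 (SD, n = 3 each), still without overlap (two-sided exact permutation p = 0.1).

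For miR-34c-5p the share of established tags was 309 ± 51.2 per 1000000 in IDD and 336 ± 72.1 in Sham, and the groups overlapped (two-sided exact permutation p = 0.6). Without miR-1b in the denominator it was 617 ± 75.4 in IDD and 565 ± 120.5 in Sham (two-sided exact permutation p = 0.6). Its direction thus also turned with the denominator.

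**Figure D4:**
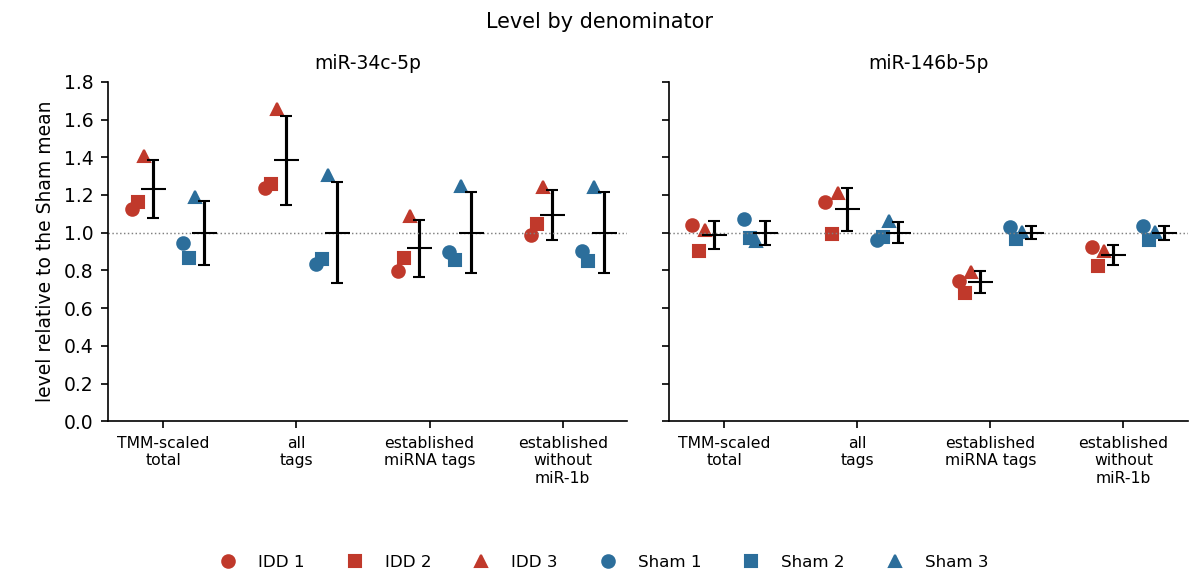
Level of miR-34c-5p and miR-146b-5p relative to the Sham mean (y axis) against 4 denominators (x axis), with 1 point per library, the mean and SD beside each group and a dotted line at the Sham mean. miR-146b-5p in IDD lies wholly below Sham against established miRNA tags, with and without miR-1b, and overlaps Sham against the other 2 denominators.

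The ratio of the tested members to each other needs no scaling. miR-34c-5p over miR-146b-5p was 0.524, 0.623 and 0.674 in IDD and 0.427, 0.433 and 0.606 in Sham. The ratio was highest in IDD 3, and Sham 3 lay above IDD 1. The mean log2 ratio was 0.32 higher in IDD (two-sided exact permutation p = 0.2) and did not pass. Between libraries of the same number the log2 ratio was higher in IDD in 3 of 3 pairs, by 0.29, 0.52 and 0.15 (two-sided exact sign-flip permutation p = 0.25, the smallest that 3 pairs allow). The CPM of miR-34c-5p was likewise higher in IDD in 3 of 3 such pairs, and with the replicate number as a block its edgeR adjusted p was 0.133. No label says that libraries of the same number are pairs.

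Other miRNAs linked to p53 or senescence moved both ways. The list, which includes the miR-34 names, held 22 names. Matched by name, 12 of them had a listed sequence, and 8 sequences were tested, miR-34c-5p among them. Of these, 3 rose, 1 fell and 4 did not pass, beside 29.0% higher and 30.5% lower among all tested sequences. miR-29a-3p, which targets collagen mRNAs, rose 2.26-fold (log2 1.17, SE 0.12, edgeR adjusted p = 7.47e-06), and miR-24-3p rose 1.42-fold (log2 0.50, SE 0.12, adjusted p = 0.00208). miR-22-3p rose 1.19-fold (log2 0.25, SE 0.10, adjusted p = 0.0461), but 9 of 18 alternatives did not call it (adjusted p up to 0.395). miR-16-5p, known to restrain cell cycle genes, fell (log2 −1.86, SE 0.24, adjusted p = 3.05e-05). Its counts were low, at 7, 3 and 4 tags in IDD and 15, 18 and 14 in Sham.

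Beside miR-34c-5p, those that did not pass were miR-192-5p (log2 0.26, adjusted p = 0.495), miR-24-2-5p (0.21, adjusted p = 0.141) and miR-143-3p (−0.45, adjusted p = 0.112), all from edgeR. miR-192-5p, itself induced by p53, stood at 70.2 ± 6.23 CPM in IDD and 58.8 ± 2.35 CPM in Sham (SD, n = 3 each). The median log2 fold change of the 8 was 0.25, and it was also 0.25 for the 7 without miR-34c-5p, against 0.03 over all 131 tested sequences. The miR-449 names, miR-194 and miR-107 were among the 10 names of the list without a listed sequence. miR-126 was counted among them because of its spelling, although miR-126a-3p was listed.

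The list linked to NF-kB and inflammation held 17 names, of which 13 had a listed sequence but 5 sequences were tested. The 13 leave out miR-126, whose listed form miR-126a-3p the match by name missed. Of these, 1 rose, 2 fell and 2 did not pass, beside 29.0% higher and 30.5% lower among all tested sequences. miR-21-5p, known to increase in inflamed and fibrotic tissue, rose 2.34-fold (log2 1.23, SE 0.12, edgeR adjusted p = 4.13e-06). miR-10a-5p, reported to restrain NF-kB signalling in endothelium, fell (log2 −1.89, SE 0.15, adjusted p = 2.04e-06). miR-23b-3p fell (log2 −0.57, SE 0.19, adjusted p = 0.0290), but 7 of 18 alternatives did not call it (adjusted p up to 0.154).

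Beside miR-146b-5p, miR-125b-5p did not pass (log2 0.18, adjusted p = 0.209). The median log2 fold change of the 5 was −0.01, which is the value of miR-146b-5p itself, and that of the other 4 was −0.19. Among members too rare to test, miR-221-3p had 19, 5 and 9 tags in IDD against 4 tags in Sham 1 and blanks in Sham 2 and 3, and miR-147 was blank in IDD with 2, 2 and 5 tags in Sham. These 2 were chosen after their values were seen.

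**Figure D5:**
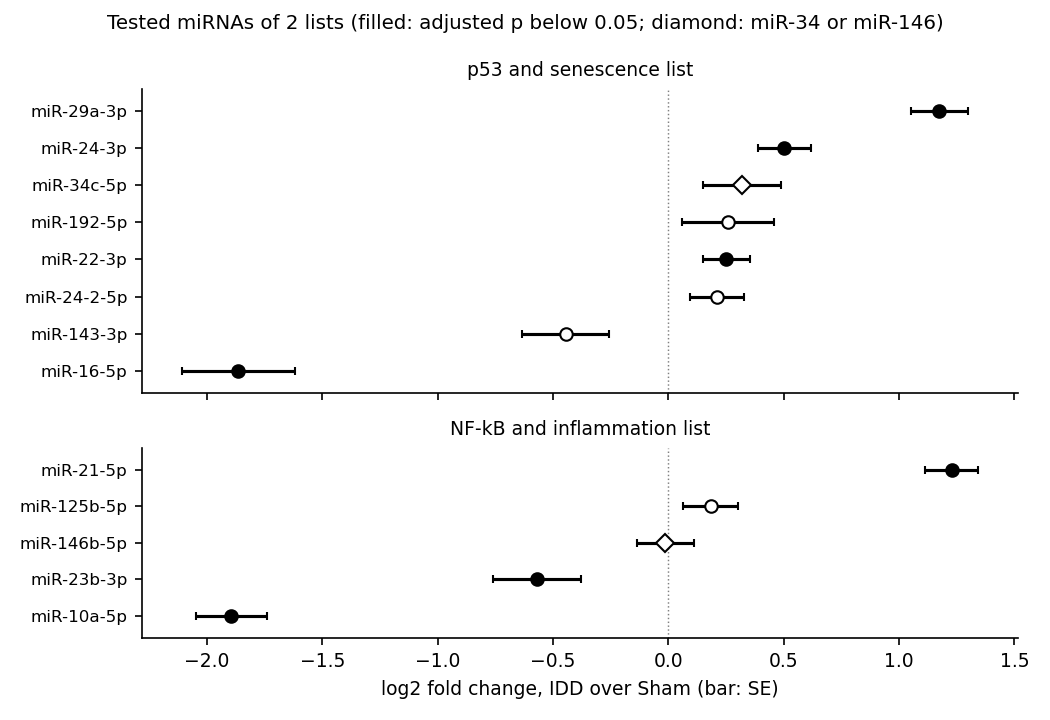
Log2 fold change of IDD over Sham (x axis) with its SE for the tested miRNAs of the p53 and senescence list (top) and the NF-kB and inflammation list (bottom), filled where the adjusted p was below 0.05 and drawn as a diamond for miR-34c-5p and miR-146b-5p. miR-29a-3p and miR-21-5p lie farthest to the right, and miR-16-5p and miR-10a-5p farthest to the left.

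Apart from miR-146b-5p, the marker miRNAs of leukocytes were scarce in these libraries. Both miR-146 and miR-155 are known to be abundant in immune cells. Of 7 marker names for leukocytes, 5 had a listed sequence, while miR-142, found in nearly all blood cells, and miR-155 had none. Without the miR-146 and miR-155 names, 4 markers remained, of which 3 were listed, and these held 0.00843% to 0.0106% of all tags in IDD and 0.00433% to 0.00589% in Sham. Most of this was miR-342-3p, with 21, 12 and 18 tags in IDD and 6, 7 and 5 tags in Sham, which rose 2.53-fold (edgeR adjusted p = 0.000781). miR-150-5p of lymphocytes had 5, 4 and 3 tags in IDD and 3, 2 and 3 in Sham. Of miR-223, a miRNA of myeloid cells, only the 5p arm was listed, blank in IDD and at 2 tags in each Sham library. The part of leukocytes in the level of miR-146b-5p was not tested.

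The established miRNAs whose profiles over the 6 libraries were most like those of the tested members were taken by the root mean square difference of centred log2 CPM, among 107 candidates each. For miR-34c-5p these were miR-140-5p (0.08), miR-23a-3p (0.13) and miR-128-3p (0.13), where the median candidate differed by 0.34. miR-140-5p stood at 7055, 7152 and 7852 CPM in IDD and 5459, 5764 and 7109 CPM in Sham, with Sham 3 again above IDD 1. For miR-146b-5p they were miR-25-3p (0.05), let-7c-5p (0.07) and miR-872-5p (0.09), with a median of 0.31. miR-25-3p stood at 2719, 2336 and 2488 CPM in IDD and 2979, 2451 and 2464 CPM in Sham. These profiles share libraries, depth and scaling, and the likeness is a description of 6 libraries.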

How the data were processed

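Per the labels' protocols, adaptor-ligated small RNA of 3 IDD and 3 Sham nucleus pulposus samples was amplified by PCR and read on a NovaSeq instrument. Per the file headers, the first deposited table gives a raw tag count for each mature miRNA and library. The deposited normalized values, rounded by the authors to whole numbers on a basis not given in the sources used here, were treated as a score and used only as an alternative. Novoalign 3.02.12, cutadapt 1.9.3 and the build Rnor_6.0 appear in the submitters' processing notes, without their roles. Blank cells were set to 0, and the lowest listed count was 2.

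The 491 rows were merged to 442 sequences, 204 under established names and 238 under provisional ones. Sequences kept by filterByExpr (minimum count 10; 131 remained) were scaled with TMM and compared by edgeR 4.0.16 (R 4.3.3, robust quasi-likelihood fit, two-sided), with a call at p below 0.05 after Benjamini-Hochberg adjustment. Each SE was taken from the fold change and F (|log2 fold change| divided by F's square root), and 95% intervals use it with the test's degrees of freedom. CPM use TMM-scaled totals. Library totals were 169783 to 253807 tags, and 2 tags correspond to 7.74 to 11.3 CPM of the TMM-scaled totals. Shares, ratios and members below the filter were compared by exact two-sided permutation tests (smallest p 0.1). Exact binomial and Poisson intervals are at 95% (scipy 1.17.1). Of the fits, only that of edgeR was also run on simulated counts, and the outcome is not given here.

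Every sequence that the name rule found is named, with absent names, listed sequences of the same seed, the 3 most similar established miRNAs (log2 of CPM plus 1) and tested members of the lists. The members and lists were chosen with earlier results of these data known. Lists were matched by name, which missed miR-126a-3p (6, 5 and 5 tags in IDD, 10, 8 and 7 in Sham), written miR-126 in them. The red blood cell and epithelial markers gave miR-486 (log2 −0.39, edgeR adjusted p = 0.00650), miR-451-5p and miR-200a-3p, blank in IDD. The only endothelial marker was miR-126, so that match by name found none.

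Deviations from the group mean correlated at 0.104, 0.107 and 0.197 between libraries of the same number. All exceed 0.1, the value set for counting the numbers as pairs, but IDD 2 with Sham 1, of unlike number, reached 0.106. The correlations thus cannot tell whether libraries of the same number are pairs, and no label says so. The reported values come from unpaired tests. The replicate block was an alternative, beside other scalings, filters, DESeq2 1.42.0, limma 3.58.1 (voom, and log2 of the normalized values plus 1), the likelihood ratio test, other thresholds and each library left out.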

Additional observations from a re-analysis of the deposited data

How the results depend on the processing

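miR-34c-5p passed under 2 of 18 alternatives, with library size alone (log2 0.51) and on the authors' normalized values (0.52), and had a positive sign in each. Without one library it ranged from 0.19 to 0.39. With the replicate block it was 0.30 (edgeR adjusted p = 0.133) and miR-146b-5p was −0.02 (adjusted p = 0.912), and the block changed no call of the members. miR-146b-5p passed under none of 18 (adjusted p from 0.182 to 0.975). Its sign turned under 8, namely library size alone (log2 0.18), upper quartile scaling (0.0075), no filter (0.055), a minimum count of 5 (0.030), the authors' normalized values (0.21), without IDD replicate 2 (0.085), without Sham replicate 1 (0.042) and without the 2 most abundant provisionally named tags (0.030, chosen after seeing the data). Without one library it ranged from −0.11 to 0.085. The cause of these turns was not tested. The members' joint share, 125 per 1000000 higher in IDD over all tags, turned to −206 over established tags and −69.2 over established tags without miR-1b (chosen after seeing the data), and ranged from 77.5 to 163 without one library.

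The number of calls stayed within 1.5 times of 78 under 19 of 20 alternatives, at 58 to 77 without one library, and was 285 of 442 with no filter, where more sequences were tested. The split of higher to lower was 38 to 40, 52 to 29 with library size alone and 60 to 30 on the authors' values. The summed-count ratios of miR-34a-5p and miR-146a-5p kept their direction in all 9 and 8 alternatives, some chosen after seeing the data, where log2 values ran from −1.15 to −0.53 and from 0.86 to 1.79. Without Sham 1, miR-146a-5p had no Sham tag and no ratio. Depth limits miR-34a-5p, miR-34b-3p, miR-146a-5p and every unlisted arm.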
